A study of Mus musculus with 14 samples.

Results

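The nuclear genes of the oxidative phosphorylation complexes and of their dedicated assembly factors were followed in SCp2, a mammary epithelial cell line of the mouse, with and without the matrix-digesting enzyme MMP-3 and at several plating densities. The members were the probe sets whose platform annotation names a single symbol that starts with Nduf, Sdh, Uqcr, Cox4, Cox5, Cox6, Cox7, Cox8 or Atp5. There were 185 such probe sets for 94 genes, among the 18193 genes with a probe set of 1 symbol. For the 53 members with several probe sets, the one that varied most over the 14 arrays (largest SD) was used. The prefixes took in 34 subunits and 8 assembly factors of complex I, 4 subunits and 4 assembly factors of complex II, 8 subunits of complex III, 10 widely expressed and 8 tissue-restricted subunits of complex IV, Cox7a2l, and 17 subunits of complex V. They did not take in the subunits encoded by mitochondrial DNA, Cyc1, cytochrome c or most assembly factors of complexes III to V.

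Cells were plated in 35 mm dishes, received MMP-3 or served as controls for 3 days, and were measured on 1 Affymetrix array per dish from 200 ng of total RNA. The medium, DMEM with 2% fetal calf serum, was common to all dishes. Experiment A had 1 MMP3 and 1 control dish for each plating of 50K, 100K or 250K cells (6 arrays), and experiment B had these and a pair at 25K (8 arrays). The labels do not say whether the dishes of an experiment came from separate cultures, so the p-values reflect only how far these dishes scatter, which may be technical. All dishes are of 1 cell line, and RNA of a whole dish was measured, so a change in the mixture of cells and a change per cell cannot be told apart.

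Oxidative phosphorylation takes electrons from NADH through complex I and from succinate through complex II to ubiquinone, then through complex III and cytochrome c to complex IV, which reduces oxygen. Complexes I, III and IV pump protons across the inner mitochondrial membrane, and complex V, the ATP synthase, lets them flow back to make ATP. In the mammary gland, mitochondria of the epithelium supply ATP for growth and for making milk.

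Values are relative log2 expression. Each probe set's median over the 14 arrays is 0, so a value gives a difference from that median and never a level, and a difference of 1 is a doubling. The centring leaves no way to say which genes were expressed. The tissue-restricted members and Ndufb4 had an SD of at most 0.044, which 40% of all probe sets stay under (0.049), and 85 of the 94 members were above that bound. For this reason the share of all genes past a test is given over all 18193 genes and over the 11812 above the same bound.

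The arrays of experiment B have to be described before the results. Ifit1, an interferon-induced gene, stood at 2.83, 3.96 and 4.21 in the MMP3 dishes of experiment A at 50K, 100K and 250K and between -2.98 and -2.91 in its controls. In experiment B it was -2.83, 4.53, -2.97 and 5.15 in the dishes labelled MMP3 at 25K, 50K, 100K and 250K, against -2.93, 3.71, -2.93 and 4.26 in those labelled control. The libraries labelled MMP3 25K, MMP3 100K, control 50K and control 250K of experiment B therefore went against the pattern that experiment A gives for their label. In B the MMP3 and the control dish were both high in Ifit1 at 50K (4.53 and 3.71) and 250K (5.15 and 4.26). They were both low at 25K and 100K, while each pair of A joined a high MMP3 dish and a low control. Labels were kept throughout, and the fits that use experiment B are given with and without those 4 arrays. Counts over the pairs or groups of dishes of B cannot be given without them, since each pair of B holds 1 of the 4. The array labelled MMP3 100K of B also had the largest SD over all probe sets, 0.869, where the others had 0.232 to 0.412. On it 48 of the 94 members had their value farthest from 0. Its ratio of 3' to 5' signal for actin was 0.65, where the others had -0.34 to 0.19. Because the values are centred, the markers of mammary epithelium cannot show that the cells are what the label says. Between MMP3 and control dishes of A, Epcam (1.18) and Cdh1 (0.89) rose and Krt5 (-1.03) fell, 3 of 6 epithelial markers. None of the 6 macrophage, 7 fibroblast, 4 endothelial, 4 adipocyte and 4 skeletal muscle markers passed in A, with differences from -0.90 to 0.39.

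**Figure D1:**
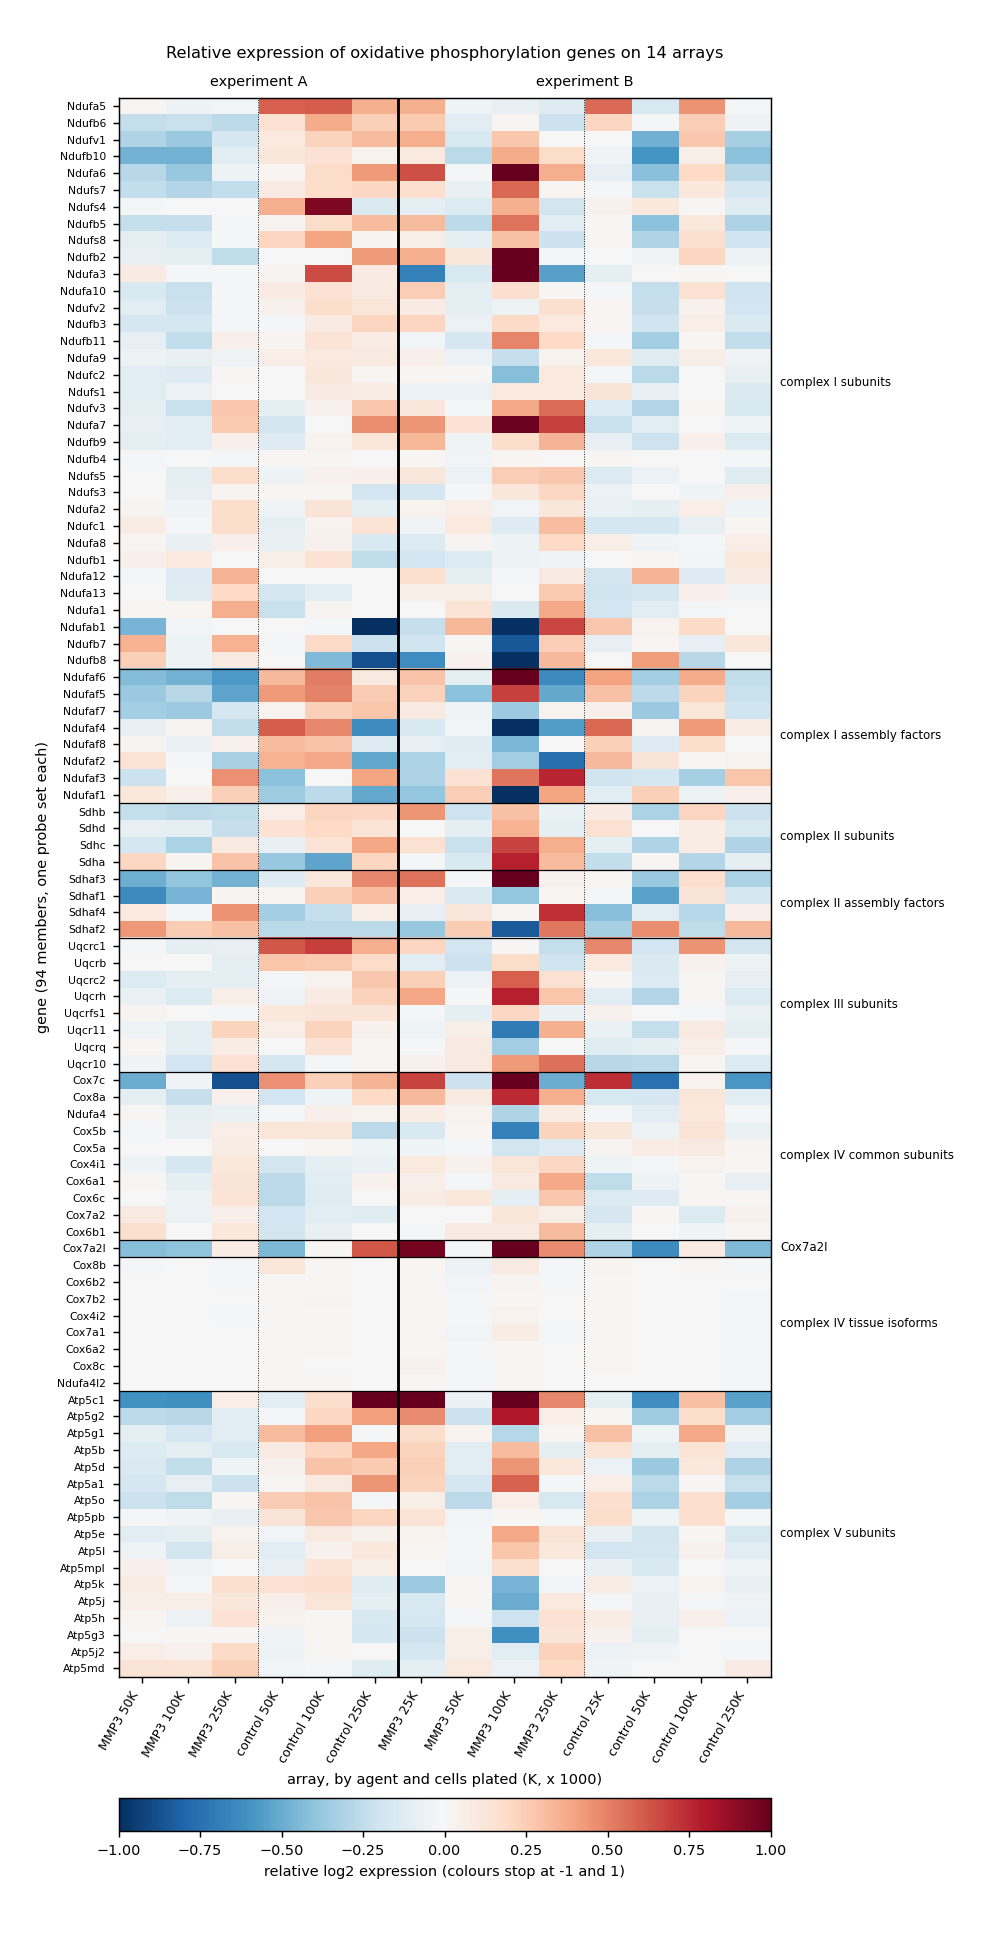
Relative log2 expression of the 94 members (rows, by complex and then by their MMP3 minus control difference in A) on the 14 arrays (columns, MMP3 left of control within each experiment), with colours that stop at -1 and 1. The column of MMP3 100K of B holds the farthest value of 48 members, and the 8 tissue-restricted members of complex IV stay near 0 on every array.

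In experiment A more members were lower than higher in the MMP3 dishes. By the sign of the difference the same was true of all genes, but more of all genes were called higher than lower. There were 8 subunits or assembly factors that fell past the threshold (limma, Benjamini-Hochberg adjusted p under 0.05 over all 18193 genes): Ndufa5 and Ndufs7 of complex I, Sdhb and the factor Sdhaf3 of complex II, Uqcrb and Uqcrfs1 of complex III, and Atp5b and Atp5g2 of complex V. The complex II assembly factor Sdhaf2 rose. The falls ran from -0.60 to -0.12 and the rise was 0.60. Of the complex IV members and the complex I assembly factors, 0 passed, with 1 of 10 widely expressed complex IV subunits and 4 of 8 complex I factors at an unadjusted p under 0.05. Among all genes 2.7% were called lower and 4.29% higher, and among the members 8.51% were called lower and 1.06% higher.

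Among genes above the SD bound, tested alone, 18 of 85 members were called lower against 10.5% of all genes, and 3 of 85 higher against 14.5%. An unadjusted p under 0.05 was seen for 37 of 94 members (39.4%) and for 26.1% of all genes. The median difference over the members was -0.08, with 64 of 94 below 0, and over all genes it was -0.02, with 12631 of 18193 below 0. The groups of 3 dishes did not overlap in 38 members with MMP3 lower, where 39.3% of all genes have that order, and in 5 with MMP3 higher, where 12.7% have it. Above the SD bound these counts were 29 and 5 of 85, with 23.3% and 19.5% of genes.

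The calls rest on few dishes. With 6 arrays and 2 residual degrees of freedom, leaving out any single array of the 6 left 0 of the 94 members called, and 0 of the 18193 genes. Such fits have still fewer residual degrees of freedom, so the loss of calls does not single out a dish. The MMP3 arrays of A also had a higher ratio of 3' to 5' signal for Gapdh (0.04 to 0.17, against -0.03 to 0.03 in the controls). Their 18S signal was higher as well (0.92 to 1.15, against 0.45 to 0.83). For actin the 3' to 5' ratio was lower in the MMP3 dish at each density. It was -0.14, -0.08 and 0.09 at 50K, 100K and 250K, against 0.03, -0.05 and 0.11 in the controls. The part of these signals in the differences was not tested.

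**Figure D2:**
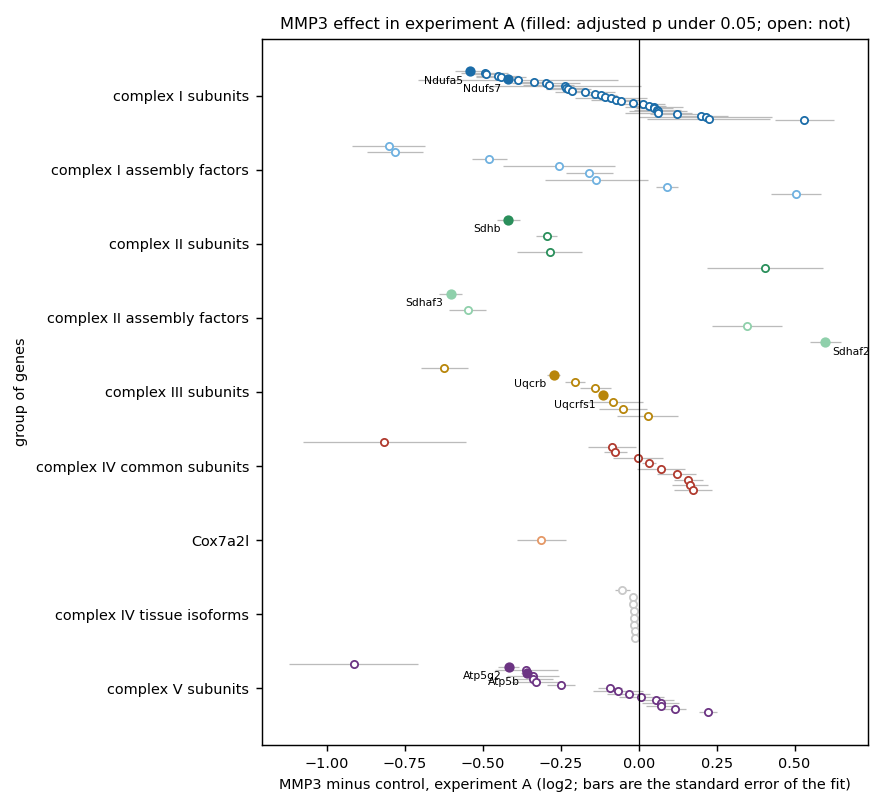
MMP3 minus control difference in experiment A for each of the 94 members (log2, horizontal axis) by group of genes (vertical axis), with the standard error of the fit as a bar. The 9 filled points passed the threshold, 8 left of 0 and Sdhaf2 right of it, and complex IV has none.

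Complex I is the largest of the complexes, with a matrix arm that oxidizes NADH and a membrane arm that pumps protons. Its 34 measured subunits had a median difference of -0.11 in A, with 22 below 0, 2 called lower and 0 called higher. Ndufs7, which carries the iron-sulfur cluster next to the ubiquinone site, stood at -0.25, -0.29 and -0.24 in the MMP3 dishes at 50K, 100K and 250K and at 0.08, 0.19 and 0.21 in the controls. Every MMP3 dish of A was below every control, and the difference was -0.42 (SE 0.0285, adjusted p = 0.0348). Its other probe set gave -0.35.

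Ndufa5, an accessory subunit of the matrix arm, had 0.01, -0.05 and -0.02 in the MMP3 dishes and 0.60, 0.61 and 0.35 in the controls of A. The groups did not overlap, and the difference was -0.54 (SE 0.05, adjusted p = 0.0453), with -0.46 from the second probe set. Ndufv1, the subunit that binds NADH and the flavin, was at -0.30, -0.37 and -0.17 in MMP3 dishes and 0.10, 0.22 and 0.32 in controls. It had no overlap either but just missed the threshold (-0.49, SE 0.0535, adjusted p = 0.0541). Ndufs1, the large iron-sulfur subunit that takes electrons on from Ndufv1, differed by -0.11 (adjusted p = 0.111).

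The complex I subunits with the largest SD, Ndufb2 and Ndufa3 of the membrane arm, each had 1 array far from the rest. Ndufb2 was at 3.13 and Ndufa3 at 2.26 on MMP3 100K of B, against -0.67 to 0.65 for both genes on the other 13 arrays. In A the Ndufb2 probe set gave -0.29 and the gene's other probe sets 0.15 and 0.20. For Ndufa3 the values were -0.24 and, from the others, 0.48 and 0.51. Neither difference of the probe sets used passed (adjusted p = 0.178 and 0.467), and for both genes the direction depends on the probe set. Ndufb8, chosen here after its values were seen, disagreed likewise, with 0.53 from the probe set used and -0.10 from the other. In all, 14 of the 53 members with several probe sets had one of the opposite sign in A.

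**Figure D3:**
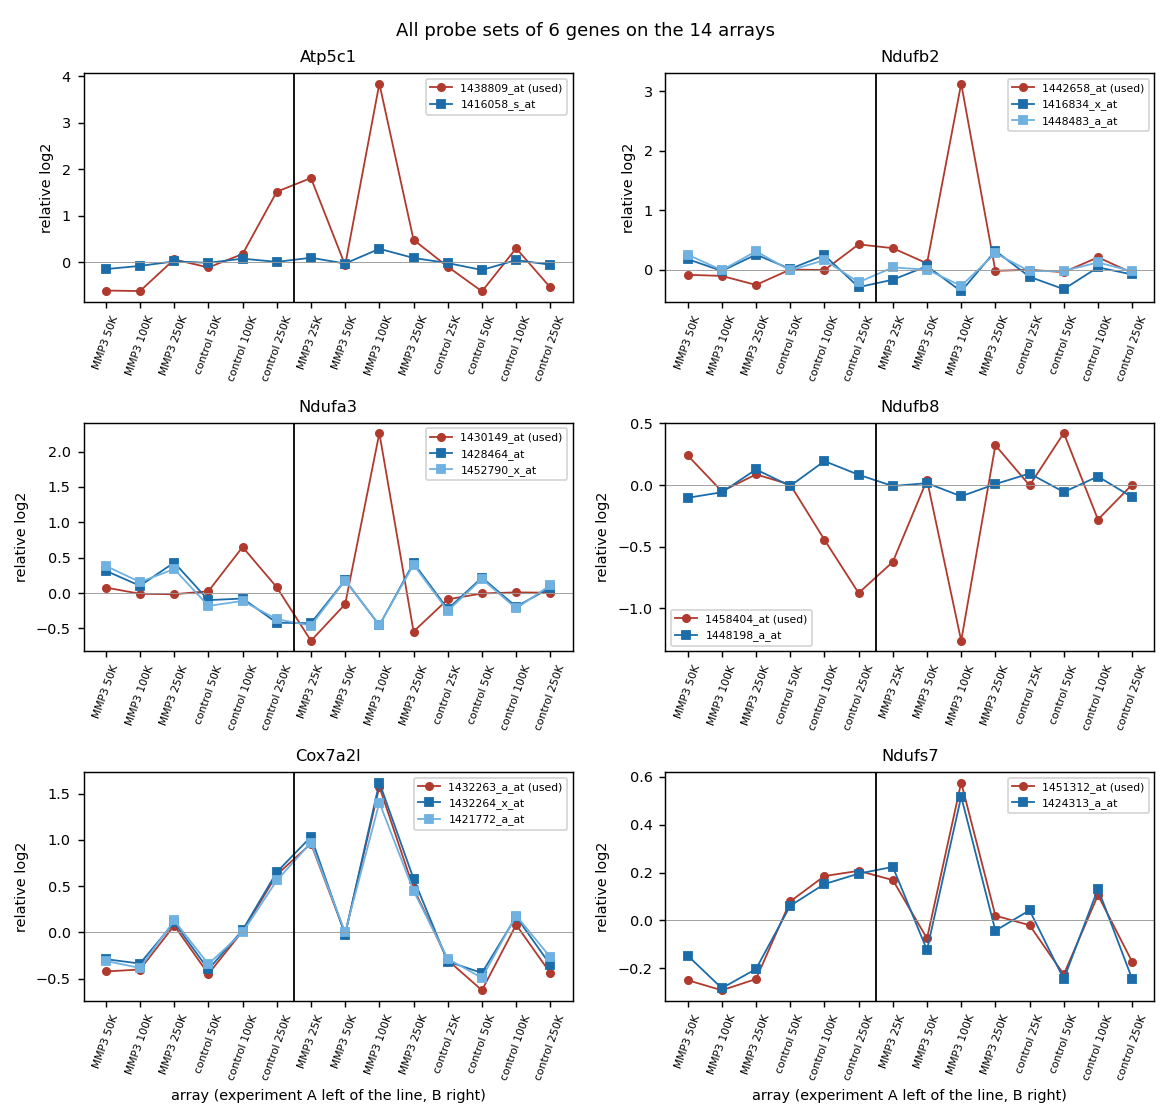
Relative log2 values of every probe set of 6 genes (vertical axes) on the 14 arrays (horizontal axes, experiment A left of the line). The probe sets of Cox7a2l and Ndufs7 run together, while those used for Atp5c1, Ndufb2 and Ndufa3 reach 3.84, 3.13 and 2.26 on MMP3 100K of B and the others of these genes do not.

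The 8 assembly factors of complex I had a median of -0.21 in A (-0.46 without control 250K, and -0.11 without control 100K or without MMP3 50K) and none passed, though they held the largest falls of any member but Atp5c1 and Cox7c. Ndufaf6 and Ndufaf5, named after their values were seen, differed by -0.80 and -0.78 (adjusted p = 0.0745 and 0.0555). Ndufaf5, which modifies an arginine of Ndufs7, stood at -0.37, -0.27 and -0.52 in MMP3 dishes and 0.43, 0.50 and 0.25 in controls, without overlap. Ndufaf1, a factor for the membrane arm, went the other way, at 0.10, 0.05 and 0.24 in MMP3 dishes and -0.36, -0.26 and -0.51 in controls (0.51, adjusted p = 0.0821). The factors thus did not share a direction.

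Complex II, succinate dehydrogenase, is built from nuclear genes alone and also serves the citric acid cycle. Sdhb, its iron-sulfur subunit, had -0.24, -0.27 and -0.26 in the MMP3 dishes of A and 0.07, 0.22 and 0.21 in the controls. The dishes did not overlap, and Sdhb fell (-0.42, SE 0.0377, adjusted p = 0.0440). The membrane anchors Sdhc and Sdhd differed by -0.28 and -0.30 (adjusted p = 0.252 and 0.0553). Sdha, the flavoprotein that oxidizes succinate, was at 0.21, 0.03 and 0.29 in MMP3 dishes and -0.38, -0.53 and 0.21 in controls, so the groups overlapped, with the control at 250K above the MMP3 dish at 100K. Its difference of 0.41 did not pass (adjusted p = 0.280), and its other probe sets gave -0.15, -0.01 and 0.06.

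The complex II assembly factors held both the largest rise and the largest fall among the calls. Sdhaf2, which is needed to attach the flavin to Sdha, stood at 0.44, 0.26 and 0.29 in the MMP3 dishes of A and at -0.27, -0.27 and -0.27 in the controls. Its rise was 0.60 (SE 0.0493, adjusted p = 0.0408), with 0.13 from the other probe set. Sdhaf3, which helps mature the iron-sulfur subunit Sdhb, stood at -0.49, -0.40 and -0.48 in MMP3 dishes and -0.13, 0.10 and 0.48 in controls. It fell (-0.60, SE 0.0374, adjusted p = 0.0338), but the second probe set gave -0.05. Sdhaf1, another factor for Sdhb, was at -0.64, -0.46 and 0.03 in MMP3 dishes and 0.02, 0.24 and 0.31 in controls, and its difference of -0.55 missed the threshold (adjusted p = 0.0542). It is named after its values were seen, as is Sdhaf4, a factor that binds flavinylated Sdha, at 0.35 (adjusted p = 0.216).

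Complex III passes electrons from ubiquinol to cytochrome c. Of its 8 measured subunits 7 were below 0 in A, and 2 were called. Uqcrfs1, the Rieske iron-sulfur protein, had 0.03, 0.0034 and -0.01 in the MMP3 dishes and 0.11, 0.13 and 0.13 in the controls. The fall was small, -0.12 (SE 0.0108, adjusted p = 0.0454), and the dishes of a group lay close together. Uqcrb, a small subunit near the ubiquinone site and named after its values were seen, fell by a larger step, with 0.00065, -0.00064 and -0.10 in MMP3 dishes and 0.27, 0.26 and 0.18 in controls (-0.27, SE 0.0212, adjusted p = 0.0382). Its second probe set gave 0.01.

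Uqcrc1, a core subunit that faces the matrix, had the largest difference of the complex. It stood at -0.01, -0.10 and -0.08 in the MMP3 dishes of A, against 0.62, 0.69 and 0.37 in the controls, with no overlap. The difference was -0.62 (SE 0.0769, adjusted p = 0.0606), outside the threshold. Uqcrh, the hinge protein that helps bind cytochrome c, differed by -0.14 (adjusted p = 0.248).

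Complex IV, cytochrome c oxidase, is the step that consumes oxygen. Its 10 widely expressed subunits had a median of 0.05 in A, with 6 above 0 and 0 called. That median was -0.01 without MMP3 250K, 0.02 without MMP3 50K or without control 250K, and 0.09 without MMP3 100K. Whether complex IV differed from the other complexes was not tested. Cox6b1, which lies where cytochrome c docks, had 0.16, -0.01 and 0.11 in MMP3 dishes and -0.19, -0.07 and -0.0021 in controls (0.18, adjusted p = 0.239). The groups overlapped, with MMP3 at 100K just below the control at 250K. Cox7a2 and Cox6a1 differed by 0.16 and 0.12 (adjusted p = 0.244 and 0.283), and Cox4i1, the regulatory subunit that binds ATP, by 0.07. Cox8a was at -0.09 and Ndufa4, first assigned to complex I and later to complex IV, at -0.08. Cox7c, the member with the largest SD of the complex, had -0.50, -0.04 and -0.88 in MMP3 dishes and 0.46, 0.23 and 0.34 in controls, and its difference of -0.82 did not pass (SE 0.262, adjusted p = 0.216).

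The 8 tissue-restricted subunits of complex IV gave no information on MMP-3. Cox6a2, Cox7a1 and Cox8b are the forms of heart and skeletal muscle, Cox4i2 is a form of lung and of low oxygen, Cox6b2 is a form of testis, and Ndufa4l2 is induced by hypoxia. With Cox7b2 and Cox8c, they had SDs of 0.00876 to 0.044 over the 14 arrays, against a median of 0.13 for the widely expressed subunits. Their differences in A ran from -0.05 to -0.01, all below 0 and none called, where the median gene was at -0.02. Cox7a2l, which joins complex III to complex IV in supercomplexes, varied far more, with an SD of 0.63 and 3 probe sets that ran together. It stood at -0.42, -0.40 and 0.07 in the MMP3 dishes of A and -0.45, 0.01 and 0.62 in the controls, so the groups overlapped (-0.31, adjusted p = 0.153).

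Complex V, the ATP synthase, consists of a catalytic head, a rotor with a ring of c subunits, and a stalk that holds the head still. Atp5b, the catalytic beta subunit, had -0.14, -0.10 and -0.15 in the MMP3 dishes of A and 0.09, 0.21 and 0.38 in the controls. It fell (-0.36, SE 0.0197, adjusted p = 0.0314), without overlap and with the smallest adjusted p of any member. Atp5g2, 1 of 3 genes for the c subunit, had -0.26, -0.27 and -0.12 in MMP3 dishes and -0.01, 0.21 and 0.41 in controls. Its fall was -0.42 (SE 0.035, adjusted p = 0.0415), with -0.26 and -0.02 from its other probe sets. Atp5a1, the alpha subunit that pairs with Atp5b in the head, was at -0.17, -0.08 and -0.22 in MMP3 dishes and 0.01, 0.09 and 0.44 in controls, and -0.34 did not pass (SE 0.0634, adjusted p = 0.102).

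The largest difference of any member in A belonged to Atp5c1, the gamma subunit of the rotor, at -0.91 (SE 0.206, adjusted p = 0.132). It stood at -0.60, -0.62 and 0.06 in the MMP3 dishes and -0.11, 0.18 and 1.52 in the controls, so the groups overlapped, and 1 control dish, at 250K, was far above the rest. The gene's other probe set gave -0.09. Over all 17 subunits of the complex the median was -0.09, with 11 below 0, and it was -0.16 without MMP3 50K and -0.15 without MMP3 250K or without control 250K.

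The promoters of called members are shown because genes of these complexes are known targets of the transcription factors NRF1, GABP (an ETS factor) and YY1. RefSeq promoters (GRCm38.p6) were found for 78 of the 94 members, and the 250 bases before the most upstream listed start were searched on both strands. The NRF1 letters, GCGCA and GCGC with any base between them, were found in 11 of 78 (14.1%) against 5.32% of 17491 protein-coding genes. CCGGAAG, for ETS factors, was found in 15 (19.2%) against 9.14%, and AANATGGC, for YY1, in 6 (7.69%) against 3.71%. Of the 9 called members 8 had an entry (Uqcrb had none), and 4 of those held a match, 2 with NRF1 and 2 with ETS letters, of which Sdhaf2 also had the YY1 letters. The matches are in capitals, do not overlap, and describe letters only.
Ndufa5, chr6:24527691-24527940, minus strand: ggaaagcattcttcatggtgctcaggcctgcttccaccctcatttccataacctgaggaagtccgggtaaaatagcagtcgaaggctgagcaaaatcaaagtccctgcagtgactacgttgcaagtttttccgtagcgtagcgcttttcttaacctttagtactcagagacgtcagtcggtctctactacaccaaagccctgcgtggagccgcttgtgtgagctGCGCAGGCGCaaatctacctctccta
Atp5g2, chr15:102671048-102671297, minus strand: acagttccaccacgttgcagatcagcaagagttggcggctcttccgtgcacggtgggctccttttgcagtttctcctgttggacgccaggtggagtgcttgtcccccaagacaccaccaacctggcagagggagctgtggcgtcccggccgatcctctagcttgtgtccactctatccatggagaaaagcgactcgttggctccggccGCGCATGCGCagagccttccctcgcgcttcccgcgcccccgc
Sdhaf3, chr6:6955768-6956017, plus strand: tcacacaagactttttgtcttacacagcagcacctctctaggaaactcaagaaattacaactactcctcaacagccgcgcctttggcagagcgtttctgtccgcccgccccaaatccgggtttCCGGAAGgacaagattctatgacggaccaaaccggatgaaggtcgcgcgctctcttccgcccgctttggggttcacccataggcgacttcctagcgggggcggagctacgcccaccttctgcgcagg
Sdhaf2, chr19:10525210-10525459, minus strand: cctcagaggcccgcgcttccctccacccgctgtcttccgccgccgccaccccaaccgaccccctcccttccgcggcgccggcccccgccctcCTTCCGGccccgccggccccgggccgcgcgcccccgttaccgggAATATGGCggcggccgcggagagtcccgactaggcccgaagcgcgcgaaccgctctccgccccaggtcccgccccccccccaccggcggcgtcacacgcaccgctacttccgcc
Ndufa5 and Atp5g2, with the NRF1 letters within 50 bases of the start, both fell in A, but most called members fell. The 11 members with the NRF1 letters did not all have the same sign in A. Sdha, Cox6a1, Atp5h, Ndufa8, Ndufs5 and Atp5k were above 0, and Ndufa5, Atp5g2, Sdhd, Ndufaf4 and Ndufb4 below. Only Ndufa5 and Atp5g2 of these were called, and Atp5k (0.01), Ndufs5 (0.01) and Ndufb4 (-0.02) hardly differed. Sdha and Atp5k also had a probe set of the opposite sign (-0.15 and -0.03). Sdhaf3 and Sdhaf2, with the ETS letters, moved in opposite directions. Atp5b, Ndufs7, Sdhb and Uqcrfs1, which also fell, held none of these letters in the window.

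Plating density was a second factor of the design, fitted as a slope per doubling of the cells plated. In experiment A 0 of the 94 members and 0 of all genes (0%) passed, with 16 members (17%) at an unadjusted p under 0.05 and 18.1% of all genes. The smallest p among members belonged to Ndufaf3, an early assembly factor of complex I named after its values were seen. It was at -0.22, 0.01 and 0.45 in the MMP3 dishes and -0.41, -0.01 and 0.39 in the controls at 50K, 100K and 250K, so it was higher at each higher density with either agent. Its slope was 0.32 (SE 0.019, adjusted p = 0.131). Cox7a2l had a slope of 0.34 (SE 0.0413, adjusted p = 0.176). By group, the median slope was -0.08 for complex I assembly factors, 0.04 for complex I subunits, 0.15 for complex II assembly factors and 0.02 for complex V.

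The product of agent and density, which asks whether the MMP3 difference depends on density, also called 0 members and 0 genes in A, with 2 members (2.13%) at an unadjusted p under 0.05 against 8.21% of all genes. At 50K 61 of 94 members were lower in the MMP3 dish (median -0.05), beside 12937 of 18193 genes (median -0.02). At 100K it was 82 members (median -0.18), with 33 of 34 complex I subunits, beside 13252 genes (median -0.02). At 250K it was 55 members (median -0.01) beside 12232 genes (median -0.01).

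Experiment B did not give the same picture. None of the 94 members and none of the 18193 genes was called for MMP3 (0%), with 15 members (16%) at an unadjusted p under 0.05 against 8.44% of all genes. The median member was at 0.05, with 65 of 94 above 0, beside 11373 of 18193 genes above 0 (median 0.0044). The medians were 0.14 for complex I subunits, 0.28 for complex II subunits, 0.01 for complex III, 0.13 for the widely expressed complex IV subunits and 0.03 for complex V. Complex I assembly factors were at -0.11. The smallest p belonged to Uqcr10, a small subunit of complex III named after its values were seen. It had 0.04, 0.09, 0.42 and 0.55 in MMP3 dishes at 25K, 50K, 100K and 250K and -0.28, -0.27, 0.02 and -0.14 in controls (0.44, SE 0.0756, adjusted p = 0.276). The groups did not overlap in 3 members with MMP3 higher (3.4% of all genes, 5.2% above the SD bound) and in 4 with MMP3 lower (3.5% and 5.39%). No member and no gene was called for the density slope of B, with 6 members (6.38%) at an unadjusted p under 0.05 against 3.56% of all genes. The slope was above 0 in 49 of 94 members, and the share of all genes above 0 is not given.

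Without the 4 arrays whose Ifit1 goes against their label, experiment B keeps 2 MMP3 and 2 control dishes, at other densities, and the fit called 0 members for MMP3. The medians were then -0.06 for complex I subunits, -0.16 for complex II subunits, 0.02 for complex III, 0.08 for complex IV and -0.04 for complex V, and 57 of 94 members were below 0. The medians of complexes I, II and V thus had the other sign. On 4 arrays a model with agent, density and their product leaves no residual degrees of freedom. The p-values of this fit therefore rest on fewer terms than those of the other fits of B, and the 2 fits differ in more than the arrays. The 2 MMP3 dishes left were those at 50K and 250K and the 2 controls those at 25K and 100K, so agent was not matched by density. For MMP3, 20 members had an unadjusted p under 0.05 in this fit. The density slope, with 0 members called as well, was above 0 in 79 of 94, with 13 at an unadjusted p under 0.05. The shares of all genes are not given for this fit, so these counts cannot be read as a trait of the members.

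Single genes, picked as examples from the called members, are set out by label and by Ifit1 in B. The other called members are not shown there, and how many members or genes follow Ifit1 in B is not given. The dishes of B with high Ifit1 are those at 50K and 250K, so following Ifit1 and following these densities cannot be told apart. Ndufs7 was at 0.17, -0.07, 0.58 and 0.02 in the MMP3 dishes and -0.02, -0.23, 0.11 and -0.17 in the controls, so that MMP3 was higher at each of the 4 densities, where it had been lower at each of the 3 in A. Its 4 arrays of B with high Ifit1 held the 3 lowest values, and the fourth, MMP3 250K, lay just above control 25K. Sdhb had 0.44, -0.21, 0.30 and -0.07 in MMP3 dishes and 0.08, -0.31, 0.22 and -0.22 in controls of B, again higher at every density. It was nonetheless below 0 on all 4 arrays of B with high Ifit1 and above 0 on all 4 with low Ifit1, as in A. Atp5b had 0.22, -0.11, 0.32 and -0.09 in MMP3 dishes and 0.13, -0.09, 0.14 and -0.11 in controls of B, with 50K in the other direction, and it was likewise below 0 on the arrays with high Ifit1 and above 0 on the others. Sdhaf2 had -0.38, 0.26, -0.84 and 0.53 in MMP3 dishes and -0.33, 0.47, -0.26 and 0.32 in controls of B, and was high in the same 4 arrays as Ifit1, whichever the label.

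**Figure D4:**
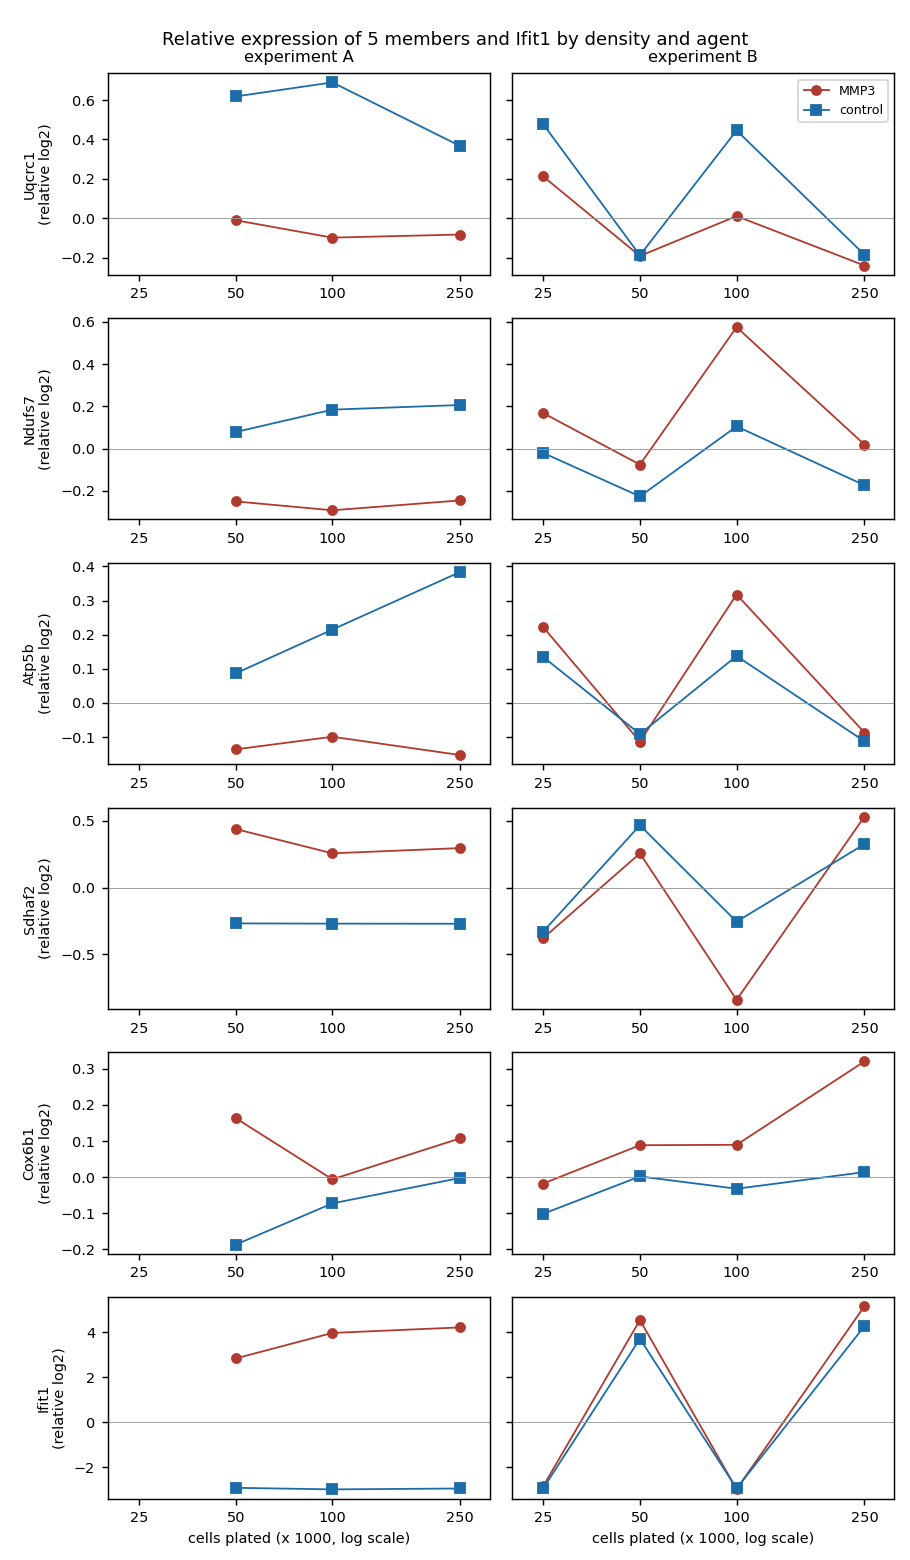
Relative log2 expression of Uqcrc1, Ndufs7, Atp5b, Sdhaf2 and Cox6b1, with Ifit1 for reference (rows), against the cells plated per dish (log axis, densities as in the labels) in experiments A (left) and B (right), for MMP3 (circles) and control (squares), 1 dish per point. In B, Ifit1 and Sdhaf2 are high at 50K and 250K under both labels, and Uqcrc1 is low there.

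Counts over pairs set unlike differences side by side. A pair of A joins a dish with high and a dish with low Ifit1, while those of B are both high or both low. In 17 of the 94 members MMP3 was lower than its control in 3 of 3 pairs of A and higher in 4 of 4 of B, a pattern of 4.91% of all genes and of 7.18% above the SD bound, and 0 members had the reverse, seen in 4.57% of genes. These members, picked out by their values, were 7 complex I subunits, Sdhb, Sdhc and Sdhaf3 of complex II, Uqcrc2 and Uqcrh of complex III, and 5 subunits of complex V, and none of complex IV. The difference between experiments itself, fitted on the 12 arrays at shared densities, passed in 0 members and in 0 genes (0%). At an unadjusted p under 0.05 there were 18 members (19.1%), against 7.55% of all genes. The estimate was below 0, that is lower in A than in B, in 70 of 94 members, and the smallest adjusted p was 0.653. The share of all genes below 0 is not given for this fit or the next, so neither count can be read as a trait of the members. Without the 4 arrays, which leaves 3 dishes of B and no residual degrees of freedom from B in this fit, 0 members were called (0.396% of genes higher, 0.368% lower), 5 had an unadjusted p under 0.05 and 65 of 94 were below 0. For the density slope the difference between experiments had 0 members at an unadjusted p under 0.05, and without those arrays 1, with 0 called (0.214% of genes higher, 0.544% lower).

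**Figure D5:**
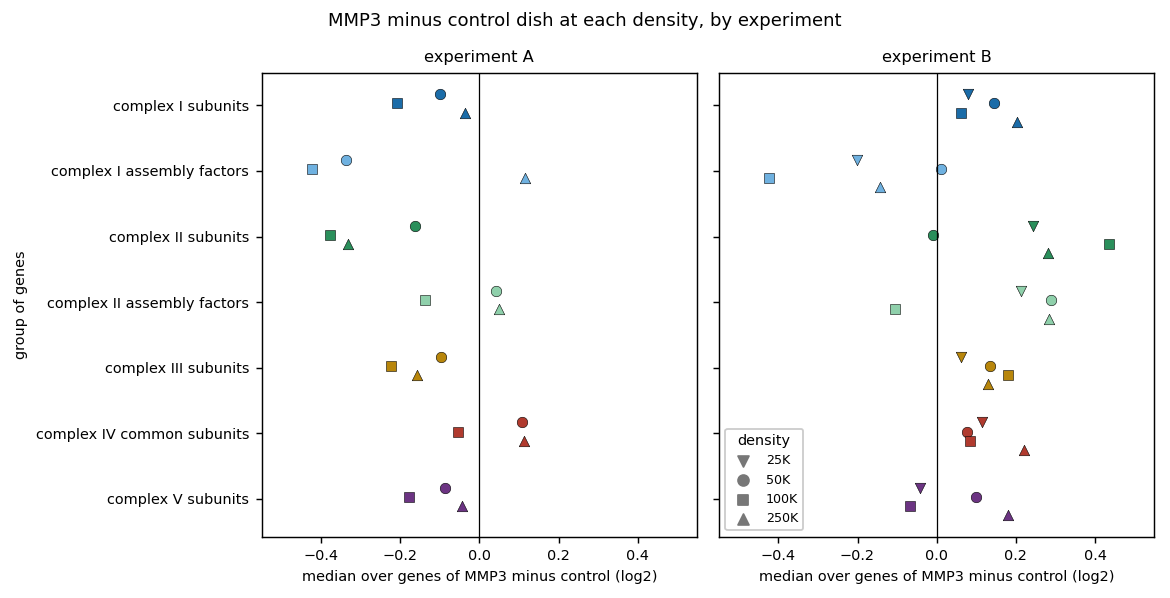
Median over the genes of each group of the MMP3 minus control difference (log2, horizontal axis) at each plating density (marker shape) in experiments A (left) and B (right). In A the medians of complex I subunits, complex II subunits, complex III and complex V lie below 0 at all 3 densities, and in B those of complex I subunits, complex III and complex IV lie above 0 at all 4.

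Fitted over both experiments with experiment as a block, the MMP3 effect passed in 0 members, against 0.572% of all genes higher and 0.561% lower (1.34% and 1.41% above the SD bound, with 0 of 85 members), with 20 members (21.3%) at an unadjusted p under 0.05 against 11.8% of all genes. Sdhaf4 came closest (0.37, SE 0.0809, adjusted p = 0.0614), followed by Cox6b1 (0.16, SE 0.0405, adjusted p = 0.0961). Both, with Cox6a1, were higher in the MMP3 dish in 7 of 7 pairs, as were 2.82% of all genes. Uqcrc1 was the only member lower in 7 of 7 pairs, as were 2.61% of genes, with 0.21, -0.19, 0.01 and -0.24 in MMP3 dishes and 0.48, -0.19, 0.45 and -0.19 in controls of B. The density slope over both experiments passed in 0 members and 0 genes, with the smallest p for Ndufaf3 (0.25, SE 0.0452, adjusted p = 0.152).

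Without the 4 arrays the fit over both experiments called 31 members lower and 10 higher for MMP3, where 22.5% and 13.7% of all genes were called. The calls were 12 lower and 2 higher of 34 complex I subunits, 3 lower and 1 higher of 8 complex I assembly factors, 2 lower of 4 complex II subunits, and 2 lower and 2 higher of 4 complex II assembly factors. In the other complexes they were 8 lower and 2 higher of 17 complex V subunits, 3 lower of 8 in complex III, and 1 lower and 3 higher of 10 widely expressed complex IV subunits. The slope then called 9 members higher and 1 lower, against 4.01% and 2.9% of genes. Since those arrays were left out on a gene that MMP-3 dishes of A share, these counts are a description and no independent support.

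Other mitochondrial and metabolic lists give the setting in experiment A. Of 16 regulators of respiratory genes 2 fell and 0 rose, Ppargc1b (-2.30, SE 0.212, adjusted p = 0.0453), a coactivator of mitochondrial gene programmes, and Myc (-0.60, adjusted p = 0.0239). The list's median was -0.27, against -0.02 over all genes. Of 14 citric acid cycle genes 2 fell, Suclg2 (-0.43) and Idh3g (-0.42), and 0 rose (median -0.25). Of 34 mitochondrial ribosome genes Mrps25 rose (0.98) and Mrps31 fell (-0.26), with a median of -0.18. Of 22 assembly genes of complexes III and IV Surf1, a complex IV factor, rose (0.22, list median 0.00043). None of 12 import genes (median -0.15), 10 genes of ATP synthase assembly and nucleotide exchange (-0.03), and 2 of cytochrome c and Cyc1 (-0.28) passed. Of 17 hypoxia and glycolysis genes Pfkp (-1.26) and Ankrd37 (-0.70) fell (median -0.19). A median below that of all genes was thus seen in most of these lists.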

How the data were processed

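RNA of 14 dishes was hybridized to Affymetrix mouse expression arrays. The authors deposited log2 expression values. RMA is named, without a version, in the submitters' processing notes. The log base and the centring of each probe set on its median (0 within 1e-06 for all 45101) are not stated and were read from the values. Groups came from the sample labels. Probe sets with 1 symbol in the platform annotation (34945 of 45037 that are not controls) were used, with symbols updated through the Entrez identifier for 34741. For genes with several, the one with the largest SD was taken, and 10 probe sets with a member's prefix and several symbols were left out.

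Tests used limma 3.58.1 in R 4.3.3 on all 18193 genes without a filter, with agent, centred log2 density and their product as terms, a fit for each experiment (2 residual degrees of freedom in A, 4 in B), and experiment as a block in the fit to both (9). Experiments were compared over the 12 arrays of the shared densities. Adjusted p-values are Benjamini-Hochberg over all genes, with a threshold of 0.05. The fits were tested on simulated data. Arrays carry no count of molecules, so their number limits the precision.

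The labels call A and B separate experiments, which is where the block comes from. Deviations from the group means correlated at 0.0576 on average between arrays of the same letter (range -0.675 to 0.652, 15 pairs of groups).

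The members and lists were chosen with earlier results of these data known. Genes named are up to 6 largest rises and 6 largest falls among members past the threshold in A, the 2 members of each complex with the largest SD, up to 3 passing genes of each further list, and a fixed set of subunits (such as Sdha to Sdhd, the Cox isoforms and the catalytic subunits). Others are said to be named after their values were seen. Alternatives tried were the SD bound, averaged probe sets per gene, subtracted array medians, robust eBayes, no product, matched dishes as a block, and each array left out. One was chosen after seeing the data, probe sets picked without MMP3 100K of B.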

Additional observations from a re-analysis of the deposited data

Results flagged for a closer look

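In 17 members every MMP3 dish of A was below its control at the same density and every MMP3 dish of B above it. The difference of the MMP3 effect, A minus B on the log2 scale over the 12 arrays at shared densities, was tested by limma and had adjusted p-values from 0.653 to 0.731, so none passed. In complex I it was -0.36 for Ndufa10, -1.14 for Ndufa6, -0.86 for Ndufb10, -1.32 for Ndufb2, -0.38 for Ndufb3, -0.59 for Ndufb5 and -0.69 for Ndufs7. In complex II it was -0.53 for Sdhb, -0.73 for Sdhc and -1.27 for Sdhaf3, and in complex III -0.50 for Uqcrc2 and -0.63 for Uqcrh. In complex V it was -0.63 for Atp5a1, -2.62 for Atp5c1, -0.67 for Atp5d, -0.37 for Atp5e and -0.81 for Atp5g2. Ifit1 was high in the MMP3 dish and low in the control at each density of A. In B the dishes of a pair were both high or both low. The array MMP3 100K of B, which had the largest SD of the 14, is part of each of these values, as are 3 of the 4 arrays of B whose Ifit1 went against their label, and their part in the differences was not tested.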

How the results depend on the processing

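The calls in experiment A depended on the processing. Against 8 members called lower and 1 higher (2.7% and 4.29% of all genes), there were 18 and 3 with genes above the SD bound only. That setting tested fewer genes, of which 10.5% and 14.5% were called. There were 4 and 0 with array medians subtracted, 4 and 0 with robust eBayes, and 2 and 0 with matched dishes as a block. Without the product of agent and density 16 were lower. With probe sets averaged per gene they were 12 and 1, and with probe sets picked without MMP3 100K of B 10 and 1. The share of all genes is not given for these settings other than the SD bound. A shift of the members therefore cannot be told from a shift of all genes there. Leaving out 1 array of A gave 0 to 0 members lower and 0 to 0 higher, in fits with fewer residual degrees of freedom. The cause of these shifts was not tested. The 9 called members were called in 3 (Atp5g2, Ndufa5, Uqcrfs1) to 6 (Ndufs7, Uqcrb) of 7 alternatives and kept their sign in all, also with any array of A left out. Their MMP3 and control dishes did not overlap in A, so the kept sign adds little support. Over both experiments, without the 4 arrays of B against their label, the 0 members called became 10 higher and 31 lower for MMP3. Of all genes 13.7% were then called higher and 22.5% lower. For density the members became 9 higher and 1 lower, beside 4.01% and 2.9% of all genes. Leaving out 1 array gave 0 to 3 higher (3 without MMP3 100K of B) and 0 to 2 lower (2 without control 50K of B) for MMP3. The share of all genes in those fits is not given. Without the replicate block for experiment, 0 members passed, as with it. No call was made in experiment B, or for the density slope or product of A, or for the differences between experiments, under the alternatives run. Fits without the product or with matched dishes were not run for those differences. Signal over background is not known, so members near background could not be told from members that did not differ.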

Other observations

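Several members outside the accounts above had ordered values. In experiment B the 4 MMP3 dishes were below the 4 controls in Ndufaf2, Ndufaf4, Ndufb1 and Cox5a. These are 4 of 94 members, where 3.5% of all genes and 5.39% above the SD bound have that order. The groups follow the labels of B, which 4 of its arrays go against by Ifit1. The complex I assembly factors Ndufaf2 and Ndufaf4 differed most. Ndufaf2 had -0.31, -0.11, -0.35 and -0.75 in the MMP3 dishes of B at 25K, 50K, 100K and 250K and 0.32, 0.13, 0.01 and 0.04 in the controls. Ndufaf4, which acts with Ndufaf3 early in assembly, had -0.15, -0.03, -1.18 and -0.56 in MMP3 dishes and 0.57, 0.03, 0.43 and 0.08 in controls of B. In experiment A, at 50K, 100K and 250K, it had -0.09, 0.03 and -0.25 in MMP3 dishes and 0.61, 0.48 and -0.63 in controls, so that its controls were high at 50K and 100K and low at 250K.

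In complex V the genes for the stalk and for the small membrane subunits did not share a direction in A. Atp5o and Atp5pb of the stalk differed by -0.33 and -0.25 (limma, adjusted p = 0.151 and 0.0955), while Atp5h and Atp5j, also of the stalk, were at 0.07 and 0.06. Atp5md, a small membrane subunit, had 0.13, 0.14 and 0.24 in MMP3 dishes and -0.03, -0.01 and -0.12 in controls, without overlap (0.22, adjusted p = 0.0620). These genes were named after their values were seen, and no explanation was tested.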
